A study of Homo sapiens with 6 samples.

Results

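The insulin-like growth factor (IGF) receptor axis was read by 20 of the 22215 non-control probe sets on the array. These were all probe sets whose single gene symbol in the platform annotation was 1 of 10 genes, namely the receptor genes IGF1R, INSR and IGF2R, the adaptor genes IRS1 and IRS2, and the binding protein genes IGFBP2 to IGFBP6. Total RNA was measured in 3 samples of LCCTam, a tamoxifen-resistant variant of the SUM44 line, at passages 8, 9 and 10, and in 3 samples of SUM44 itself, a human breast cancer line from an invasive lobular carcinoma that the labels give as positive for estrogen and progesterone receptors, at passages 74, 75 and 76. Both were grown in SFIH medium (Ham's F12), LCCTam with 500 nM 4-hydroxytamoxifen and SUM44 without it. LCCTam is a single derived line, so effects of the line, of its passages and of the drug in its medium cannot be told apart.

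IGF1 and IGF2 are secreted hormones that bind the receptor tyrosine kinase encoded by IGF1R, and insulin binds the closely related product of INSR. The active receptors phosphorylate the docking proteins IRS1 and IRS2, from which PI3K-AKT and RAS-MAPK signalling start. IGF2R takes IGF2 up for breakdown and does not signal through a kinase, and the secreted IGF binding proteins hold IGFs outside the cell and can either restrain or prolong their action. In estrogen receptor-positive breast cancer cells, IGF1R, IRS1 and several binding protein genes are known to respond to estrogen.

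The axis differed between the lines at a signalling receptor and at 2 binding proteins. IGF1R and IGFBP5 were lower in LCCTam, IGFBP3 was higher, and no probe set of the other 7 genes passed the test. Of the 20 probe sets 8 passed limma at an adjusted p of 0.05, 7 lower and 1 higher in LCCTam, against 6.73% of all probe sets (5.16% lower and 1.56% higher). Of the 8, 5 read IGFBP5, so they share a target and are not separate findings. By gene, 3 of the 10 had a passing probe set, and the matching share over all genes was not counted. Genes with more probe sets have more chances to pass in that count. With 1 probe set a gene, the brightest, 3 of 10 genes passed, 1 higher and 2 lower, against 7.92% of all genes. For 10 of the 20 probe sets the LCCTam and SUM44 samples were fully separated, 9 with LCCTam below and 1 with LCCTam above, against 28.7% of all probe sets (15.7% below and 13% above). By the selection in the study's design text, at least 2-fold with an unadjusted p under 0.05 and an intensity floor, 7 of the 20 were kept, against 2.04% of all. The median difference of the 20 was -0.17 on the log2 scale, and that of all probe sets was 0.016. With 1 probe set a gene, where IGFBP5 counts once, the members' median was -0.023, and that of all genes was 0.017. The median of the 20 was 0.013 without SUM44 passage 74, -0.029 without LCCTam passage 10 and -0.014 with arrays weighted by quality.

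**Figure D1:**
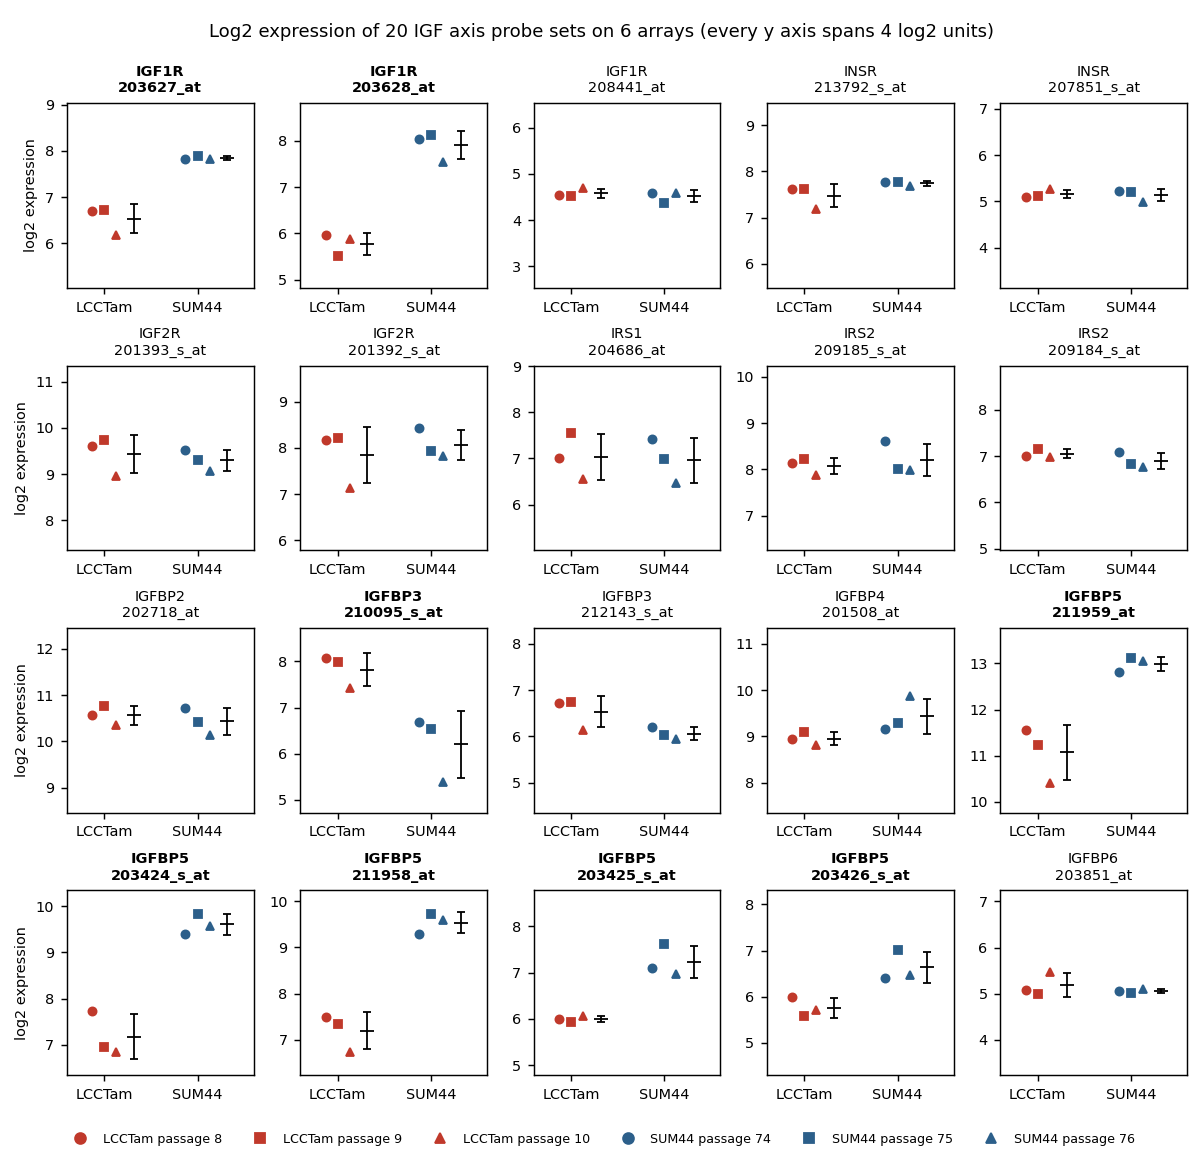
Log2 expression (y axis) of the 20 probe sets of the IGF axis in LCCTam (red, left) and SUM44 (blue, right), with 1 point per sample shaped by passage, and the mean ± SD of each line in black (n = 3 each). Bold titles mark the 8 probe sets with an adjusted p under 0.05. The LCCTam points lie below all SUM44 points for 2 of 3 IGF1R and for all 5 IGFBP5 probe sets.

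Luminal markers were bright in both lines, and 1 array stood apart. ESR1, the estrogen receptor alpha gene, differed by -1.65 at its brightest probe set (adjusted p = 0.00172). PGR, the progesterone receptor gene, was at 3.85 in LCCTam and 3.85 in SUM44, at percentile 5.55 and 5.66 of all probe sets. This is 1 RNA probe set with no detection call, so it does not test the receptor status that the labels name. All 8 luminal epithelial markers had means of at least 7.63 in LCCTam and 7.76 in SUM44, and 1 of the 8, ESR1, was lower. Of 8 fibroblast markers, with means of at most 6.82 in both lines, and of 5 leukocyte markers, with means of at most 6.23 in LCCTam and 6.28 in SUM44, 0 passed in limma and 0 had an unadjusted p under 0.05. The array of LCCTam passage 10 had a 3' minus 5' difference of 1.92 in its actin control, against 0.90 to 1.15 on the other 5 arrays. Its 75th percentile was 7.50, against 7.67 to 7.77. Where a member's difference moves by over 1.5 times without that array, both values are given.

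The sequences just before the annotated starts of the 3 genes that changed are given below, and how alike they are was not measured. Each is the 250 bases upstream of the start in the RefSeq table of GRCh38.p14, written 5' to 3' in the direction of the gene. All 10 genes matched that table. Capitals mark a GC box (GGGCGG on either strand) or a TATA-like run (TATATA or TTTAAA).
IGF1R: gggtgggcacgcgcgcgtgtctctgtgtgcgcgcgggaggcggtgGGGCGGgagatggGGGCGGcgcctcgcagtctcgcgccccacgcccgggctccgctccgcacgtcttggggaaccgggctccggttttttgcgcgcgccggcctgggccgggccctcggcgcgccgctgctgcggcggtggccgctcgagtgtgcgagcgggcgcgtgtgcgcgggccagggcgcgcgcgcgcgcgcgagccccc
IGFBP5: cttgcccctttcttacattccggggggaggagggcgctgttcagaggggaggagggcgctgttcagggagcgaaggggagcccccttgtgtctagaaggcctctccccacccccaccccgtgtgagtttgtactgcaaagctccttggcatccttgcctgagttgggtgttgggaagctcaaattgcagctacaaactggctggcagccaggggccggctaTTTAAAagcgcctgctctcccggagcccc
IGFBP3: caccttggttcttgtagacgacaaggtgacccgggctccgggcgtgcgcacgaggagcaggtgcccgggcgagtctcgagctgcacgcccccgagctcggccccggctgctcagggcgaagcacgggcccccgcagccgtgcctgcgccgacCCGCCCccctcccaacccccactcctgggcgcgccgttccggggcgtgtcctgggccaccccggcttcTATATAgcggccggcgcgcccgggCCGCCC
The IGF1R sequence lies at chr15:98648289-98648538 on the plus strand, IGFBP5 at chr2:216695550-216695799 on the minus strand and IGFBP3 at chr7:45921273-45921522 on the minus strand. IGF1R was the richest in G and C of the 3, at 81.2%, against 61.2% for IGFBP5 and 76% for IGFBP3, where the median of all such windows was 58%. IGF1R held 2 GC boxes and none of the TATA-like runs searched. IGFBP5 held no GC box and a TTTAAA run that began 29 bases before the start, and IGFBP3 held 2 GC boxes and a TATATA run that began 30 bases before it. Of 34788 distinct windows, 42.6% held GGGCGG, 3.76% held TATATA and 11.3% held TTTAAA. A GC box was in a window of 9 of the 10 genes, so it was not particular to genes that changed. The TATA box TATAAA, on either strand, was in 10.8% of all windows. Of the 10 genes it was in a window of 1, IGFBP4, which had no passing probe set. Among the 7 genes with no passing probe set, G and C ran from 56.4% in an IGFBP2 window to 80.8% for IRS1. Of the 10 genes, 0 had a window with the full palindromic estrogen response element (0.0402% of all windows) and 0 had one with the estrogen-related receptor element TCAAGGTCA (0.319%), on either strand. AGGTCA, the half-site within that element, was in a window of 1 of the 10, IGFBP2 (12% of all), and in none of the windows printed. These are letter matches in a short window, and the TATA-like letters were chosen after the sequences were read.

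IGF1R, which encodes a receptor tyrosine kinase of the axis, fell in LCCTam. Probe set 203628_at read 5.95, 5.51 and 5.87 in LCCTam passages 8, 9 and 10, against 8.05, 8.13 and 7.55 in SUM44 passages 74, 75 and 76. All 3 LCCTam values lay well below all 3 SUM44 values. LCCTam averaged 5.78 ± 0.24 and SUM44 averaged 7.91 ± 0.31 (SD, n = 3 each). LCCTam was thus 4.39-fold lower, with a log2 difference of -2.13 (SE 0.19, limma adjusted p = 0.00212). Probe set 203627_at read 6.70, 6.73 and 6.17 in LCCTam, against 7.82, 7.90 and 7.82 in SUM44. The SUM44 samples were close together here, and LCCTam passage 10 was the lowest sample. LCCTam was 2.49-fold lower, with a log2 difference of -1.32 (SE 0.15, adjusted p = 0.00565), and it was -1.13 without LCCTam passage 10 (adjusted p = 0.00193). Both probe sets passed with each sample left out in turn, with differences of -2.31 to -2.00 for 203628_at and -1.41 to -1.13 for 203627_at.

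The third IGF1R probe set, 208441_at, was dim in both lines and did not pass. It read 4.53, 4.52 and 4.69 in LCCTam and 4.58, 4.38 and 4.59 in SUM44, about percentile 20.9 of all probe sets in LCCTam and 20.1 in SUM44. The values of the lines overlapped, and the difference was 0.06 (95% interval -0.17 to 0.29), and 0.006 without LCCTam passage 10. The deposited values hold no detection calls, so whether this probe set detected a transcript is unknown. In bulk RNA, fewer cells with a transcript and less of it per cell cannot be told apart.

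INSR and IGF2R, the insulin receptor gene and the gene of the IGF2 scavenger receptor, did not pass. The brighter INSR probe set, 213792_s_at, read 7.61, 7.61 and 7.18 in LCCTam, against 7.77, 7.76 and 7.68 in SUM44. Its values did not overlap, yet the difference was small, at -0.27 (95% interval -0.58 to 0.04, adjusted p = 0.296), and -0.12 without LCCTam passage 10 (adjusted p = 0.366). The dimmer INSR probe set differed by 0.02 (interval -0.21 to 0.25), and by -0.035 without that array. For IGF2R, 201393_s_at read 9.61, 9.74 and 8.96 in LCCTam, against 9.52, 9.30 and 9.06 in SUM44. The lines overlapped, and the difference was 0.14 (interval -0.38 to 0.66). Probe set 201392_s_at read 8.17, 8.21 and 7.14 in LCCTam, against 8.43, 7.93 and 7.83 in SUM44. LCCTam passage 10 was the low sample for both IGF2R probe sets, and without it the 201393_s_at difference was 0.38 (adjusted p = 0.157) and that of 201392_s_at was 0.13 (adjusted p = 0.729), against -0.22 (interval -0.95 to 0.51) with it. With all samples, the intervals of these 4 probe sets leave out a 2-fold change in either direction, as does that of the dim IGF1R probe set 208441_at. For 208441_at and the dimmer INSR probe set, with no detection calls, this holds for the values read and may not hold for the transcript. The intervals of the other IGF1R probe sets ran from -2.57 to -1.69 for 203628_at and from -1.68 to -0.95 for 203627_at. The difference between the receptors' changes was not tested.

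IRS1 and IRS2, which encode the docking proteins that couple the receptors to PI3K, also did not pass, and IRS1 varied widely within both lines. IRS1 read 7.0, 7.56 and 6.55 in LCCTam, against 7.43, 6.98 and 6.47 in SUM44. The range within LCCTam was 1.01 and that within SUM44 was 0.96, so the samples of each line differed from each other far more than the line means did. The difference was 0.08 (SE 0.31, 95% interval -0.66 to 0.82, adjusted p = 0.916), and 0.32 without LCCTam passage 10 (adjusted p = 0.582). IRS2 read 8.14, 8.22 and 7.88 in LCCTam at its brighter probe set, against 8.61, 8.01 and 7.99 in SUM44, a difference of -0.12 (interval -0.56 to 0.32), and -0.023 without LCCTam passage 10. The other IRS2 probe set differed by 0.16 (interval -0.10 to 0.42). The lines overlapped for all 3 adaptor probe sets.

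IGFBP5, a secreted binding protein that also attaches to the extracellular matrix, fell at every one of its 5 probe sets. The brightest, 211959_at, read 11.56, 11.24 and 10.42 in LCCTam, against 12.80, 13.11 and 13.04 in SUM44. SUM44 values of this probe set were near the top of the array, at percentile 99.4, and LCCTam values remained high, at percentile 97.1. LCCTam averaged 11.07 ± 0.59 and SUM44 averaged 12.99 ± 0.16 (SD, n = 3 each). This was 3.77-fold lower in LCCTam, with a log2 difference of -1.91 (SE 0.27, limma adjusted p = 0.011). LCCTam passage 10 was the lowest sample, and without it the difference was -1.59 (adjusted p = 0.00393). Without SUM44 passage 75 the difference was -1.85 and the adjusted p was 0.0688.

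The other IGFBP5 probe sets pointed the same way with different sizes. Probe set 203424_s_at read 7.73, 6.94 and 6.84 in LCCTam, against 9.40, 9.84 and 9.58 in SUM44, and was 5.40-fold lower in LCCTam (log2 difference -2.43, SE 0.24, adjusted p = 0.0034). Probe set 211958_at read 7.49, 7.35 and 6.74 in LCCTam, against 9.29, 9.72 and 9.60 in SUM44, and was 5.07-fold lower in LCCTam (log2 difference -2.34, SE 0.21, adjusted p = 0.00243). These were the 2 largest differences of the 20 probe sets, and every LCCTam sample was below every SUM44 sample. Probe set 203425_s_at differed by -1.23 (adjusted p = 0.00902), and its LCCTam values were close together, at 6.01, 5.94 and 6.05. The dimmest, 203426_s_at, differed by -0.87 (adjusted p = 0.0414), and it passed in none of the 6 fits with a sample left out, where adjusted p was 0.05 to 0.118. The 203424_s_at, 211958_at and 203425_s_at probe sets passed in all 6.

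IGFBP3, which encodes the main IGF carrier of the blood, was the single member that rose, and its call was near the threshold. Probe set 210095_s_at read 8.06, 7.98 and 7.42 in LCCTam, against 6.68, 6.54 and 5.38 in SUM44. Every LCCTam sample was above every SUM44 sample, with SUM44 passage 76 the lowest of all. LCCTam averaged 7.82 ± 0.35 and SUM44 averaged 6.20 ± 0.71 (SD, n = 3 each). This was 3.08-fold higher in LCCTam, with a log2 difference of 1.62 (SE 0.35, limma adjusted p = 0.0432). Without SUM44 passage 76 the difference was 1.21 (adjusted p = 0.0321), and without LCCTam passage 10 it was 1.82 (adjusted p = 0.0348). It did not pass without LCCTam passage 8, LCCTam passage 9 or SUM44 passage 75, where the difference was 1.5, 1.54 and 1.79 (adjusted p = 0.156, 0.121 and 0.114). The other IGFBP3 probe set, 212143_s_at, read 6.72, 6.74 and 6.14 in LCCTam, against 6.20, 6.03 and 5.95 in SUM44. It overlapped at LCCTam passage 10 and did not pass (difference 0.48, adjusted p = 0.172), and without that array the difference was 0.67 and passed (adjusted p = 0.0127).

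IGFBP2, IGFBP4 and IGFBP6 did not pass. IGFBP4, a binding protein that restrains IGF action until it is cleaved, read 8.94, 9.09 and 8.82 in LCCTam, against 9.15, 9.29 and 9.87 in SUM44. The values did not overlap, and SUM44 passage 76 was the highest sample. The difference was -0.49 (95% interval -0.94 to -0.04, unadjusted p = 0.0375, adjusted p = 0.195), and -0.27 without SUM44 passage 76 (adjusted p = 0.311). IGFBP2 was bright in both lines, at 10.57, 10.77 and 10.36 in LCCTam, against 10.73, 10.43 and 10.14 in SUM44, and the lines overlapped (difference 0.13, interval -0.27 to 0.54, and 0.24 without LCCTam passage 10). IGFBP6, which binds IGF2 with preference over IGF1, was at 5.19 ± 0.25 in LCCTam and 5.06 ± 0.04 in SUM44 (SD, n = 3 each), near percentile 34.8 and 32.6 of all probe sets, and with no detection calls its expression is uncertain. It differed by 0.13 (interval -0.19 to 0.44), and by -0.016 without LCCTam passage 10. In the RefSeq gene table of GRCh38.p14, IGFBP2 and IGFBP5 are direct neighbours on chromosome 2, and IGFBP1 and IGFBP3 on chromosome 7, each pair with 0 annotated genes between them. IGFBP1 was dim in both lines, at a mean of 3.51 in LCCTam and 3.55 in SUM44, and did not pass (difference -0.03).

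**Figure D2:**
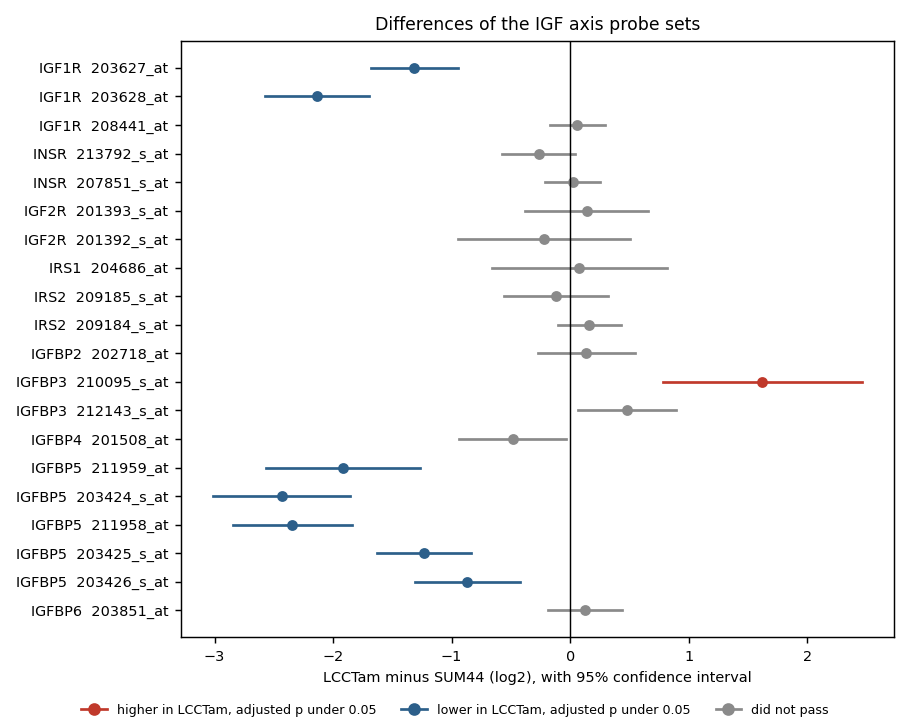
Difference of each IGF axis probe set, LCCTam minus SUM44 on the log2 scale (x axis), with its 95% confidence interval from limma. Blue marks the 7 probe sets that were lower at an adjusted p under 0.05, red the 1 that was higher (IGFBP3 210095_s_at) and grey the 12 that did not pass, whose differences ran from -0.49 to 0.48.

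Genes with the expression pattern most like each changed member were ranked by Pearson's r over the 6 arrays, among 626 genes that varied by an SD of at least 0.5. For IGF1R (203627_at) they were SCARB2, a lysosomal membrane protein, CNN3, a calponin of the actin cytoskeleton, and NFE2L3, a transcription factor, at r = 0.994, 0.994 and 0.993. SCARB2 differed by -1.96, CNN3 by -1.05 and NFE2L3 by -1.42. For IGFBP5 (211959_at) they were LTBP3, which binds latent TGF-beta, ARL2, a small GTPase, and VPS13B, at r = 0.993, 0.989 and 0.989, with differences of -1.05, -0.86 and -1.13. For IGFBP3 (210095_s_at) they were RNF141, the histone gene H2BC12 and LRRN2, at r = 0.997, 0.994 and 0.988. RNF141 differed by 0.88, and H2BC12 and LRRN2, at 0.83 and 0.75, did not pass (adjusted p = 0.0735 and 0.0872). All 9 genes, like the 3 member probe sets they were ranked against, were lowest among the LCCTam samples at passage 10, the array that stood apart, and its part in the ranking was not tested. With 2 lines on 6 arrays these coefficients mostly restate which line a sample belongs to, and the samples of a line share their origin.

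The other genes of the pathway were described with 1 probe set a gene. Of 114 listed, 93 were measured and 14 passed, 3 higher and 11 lower in LCCTam, or 15.1%, against 7.92% of all genes (2.09% higher and 5.83% lower). The median difference of the 93 was 0.004, and that of all genes was 0.017. The count fell to 5 without SUM44 passage 75, 8 without LCCTam passage 8 and 9 without LCCTam passage 9. In the fit over all probe sets, the passing ones fell from 1494 to 357, 471 and 673 in the same order. The loss of calls was thus not particular to these genes.

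Of the ligands, neither IGF1 nor INS passed, and IGF2 was not analysed here. IGF1 was at 5.59 in LCCTam and 5.49 in SUM44 at the brightest of its 4 probe sets, and INS differed by 0.08. Neither level tells whether the lines made the hormone. Of the further genes listed with the binding proteins, IGFBP7 and IGFALS differed by 0.02 and 0.49 and did not pass. IGFALS read 6.09, 5.95 and 6.59 in LCCTam, against 5.65, 5.79 and 5.73 in SUM44, with LCCTam passage 10 the highest.

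Among 12 genes of IGFBP proteases and their inhibitors, 1 rose and 2 fell, or 25% called, against 7.92% of all genes. CTSD, the lysosomal protease cathepsin D and a known estrogen-induced gene, read 11.82, 11.82 and 11.58 in LCCTam, against 10.35, 9.69 and 9.49 in SUM44, a difference of 1.90 (SE 0.22, adjusted p = 0.00392). STC1, stanniocalcin-1, an inhibitor of the IGFBP4 protease PAPP-A, read 6.91, 6.99 and 6.76 in LCCTam, against 8.44, 8.86 and 9.15 in SUM44, a difference of -1.93 (SE 0.18, adjusted p = 0.00196). All 3 STC1 probe sets passed in that direction. For both genes the lines were well apart in every sample. ADAM9, a membrane metalloprotease, differed by -1.28 (adjusted p = 0.00379). PAPPA itself, named after its value was seen, did not pass (difference 0.49, adjusted p = 0.131), and read 5.82, 5.73 and 6.37 in LCCTam, with passage 10 the highest, against 5.44, 5.54 and 5.45 in SUM44.

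**Figure D3:**
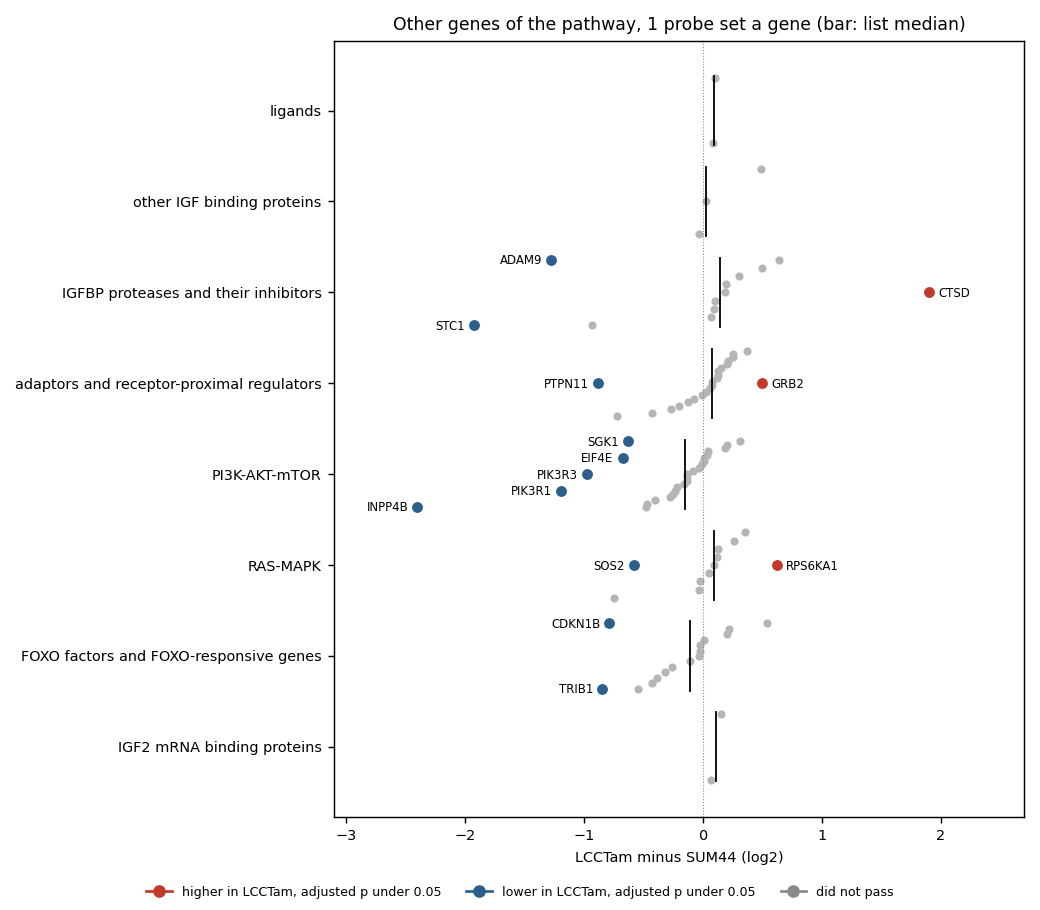
Differences of the 93 measured pathway genes by list, LCCTam minus SUM44 on the log2 scale (x axis), with 1 point per gene and a black bar at the list's median. The 14 genes that passed are coloured and named, with red for the 3 that were higher and blue for the 11 that were lower, 5 of which belong to the PI3K-AKT-mTOR list. Vertical position within a list has no meaning.

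In the PI3K-AKT-mTOR list 5 of 26 measured genes fell and 0 rose, or 19.2% called, against 7.92% of all genes. INPP4B, a lipid phosphatase that opposes PI3K signalling, read 7.44, 7.63 and 7.29 in LCCTam, against 10.13, 9.84 and 9.60 in SUM44. It had the largest difference of the 93 genes, at -2.40 (SE 0.16, adjusted p = 0.000469), or 5.29-fold lower. PIK3R1, the p85-alpha regulatory subunit of PI3K to which IRS proteins bind, read 8.22, 8.66 and 8.83 in LCCTam, against 9.72, 9.94 and 9.65 in SUM44. Its difference was -1.20 (SE 0.17, adjusted p = 0.00858), and all 3 of its probe sets passed. Without SUM44 passage 75 the PIK3R1 difference was -1.11 and the adjusted p was 0.0523. PIK3R3, another regulatory subunit, differed by -0.98 (adjusted p = 0.00364), and EIF4E, the cap-binding translation factor, by -0.68 (adjusted p = 0.0446). The other PIK3R3 probe set differed by -0.11 and did not pass (adjusted p = 0.496), and 2 of 3 EIF4E probe sets passed. The EIF4E call was lost without 5 of the 6 samples in turn, with SUM44 passage 74 the exception. The fifth, named after its value was seen, was the kinase gene SGK1, at -0.63 (adjusted p = 0.00831), with dim means of 4.45 in LCCTam and 5.08 in SUM44. Its call was lost without SUM44 passage 75 (adjusted p = 0.057). The kinase genes AKT1, AKT2, PDPK1 and MTOR, named after their values were seen, did not pass, with differences of -0.03, 0.18, 0.04 and -0.22. Without SUM44 passage 75, 2 genes of this list fell, while passing probe sets in the fit over all probe sets went from 1494 to 357.

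Of 22 adaptors and receptor-proximal regulators 1 rose and 1 fell, or 9.09% called, which is near the 7.92% of all genes. PTPN11, the phosphatase SHP2 that links receptors to RAS, read 9.14, 9.24 and 9.78 in LCCTam, against 10.31, 10.32 and 10.20 in SUM44, a difference of -0.89 (adjusted p = 0.0236). Of its 5 probe sets 3 passed, all lower, and the other two differed by -0.08 and -0.07. GRB2, the adaptor that brings SOS proteins to receptors, was 0.49 higher (adjusted p = 0.0475). PTPN11 lost its call in 5 of the 6 fits with a sample left out and GRB2 likewise in 5, and both kept it without LCCTam passage 10. Of 11 RAS-MAPK genes 1 rose, RPS6KA1, which encodes the ERK-activated kinase RSK1, at 0.62 (adjusted p = 0.0268), and 1 fell, SOS2, an exchange factor of RAS, at -0.58 (adjusted p = 0.0373). These 2 of 11 are 18.2%, against 7.92% of all genes. Of the 5 SOS2 probe sets 2 passed, both lower, and the other three differed by -0.12 to 0.02. RPS6KA1 kept its call without LCCTam passage 10 or SUM44 passage 76 and SOS2 without LCCTam passage 10, and both lost it in the other fits with a sample left out.

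**Figure D4:**
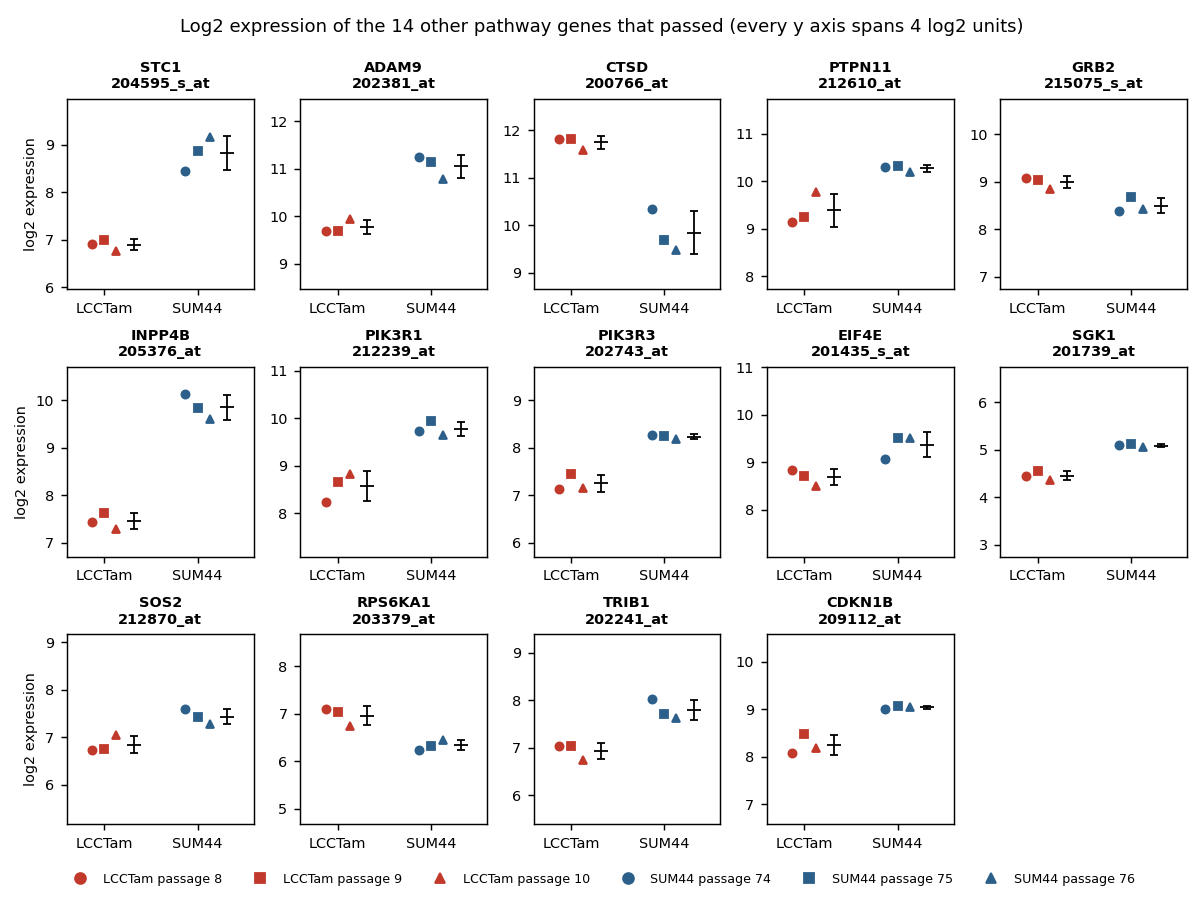
Log2 expression (y axis) of the 14 other pathway genes that passed, in LCCTam (red, left) and SUM44 (blue, right), with 1 point per sample shaped by passage and the mean ± SD of each line in black (n = 3 each). INPP4B, STC1 and CTSD have the widest gaps between the lines, while EIF4E, GRB2 and SOS2 lie close together.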

How the data were processed

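RNA of 6 samples, 3 of each line, was hybridized to Affymetrix arrays of 22283 probe sets, and 68 controls were left out of all fits. The authors deposited log2 values from RMA, per the labels' design text, a method that corrects background, equalizes array distributions and summarises probes. The deposited distributions were not fully equal, with a 75th percentile of 7.50 for LCCTam passage 10, against 7.67 to 7.77 for the others. Its version, the chip definition and scan dates were not given. RMA can compress differences of dim probe sets, and the number of arrays limits the precision.

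Gene symbols came from the platform annotation (19065 tested probe sets had a single symbol), updated by Entrez identifier with the RefSeq table of GRCh38.p14. Differences are LCCTam minus SUM44. The limma package (version 3.58.1, R 4.3.3) was fitted over 22215 probe sets, or over 11963 genes with the brightest probe set each for pathway lists and similar genes, and tested on simulated data. Adjusted p-values are Benjamini-Hochberg over the whole fit with a threshold of 0.05, and intervals are unadjusted. An exact permutation test of 3 against 3 cannot go below 0.1 and was not used.

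The passages of each line were taken as replicates 1 to 3. The labels do not call them independent cultures, so p-values reflect only how these samples vary, which may be technical. Members and lists were chosen with earlier results of these data known. By rule the text names all members, the ligands, the other binding proteins, ESR1, up to 4 passing genes per list by size (the largest where none passed) and the 3 most similar genes per changed member. Alternatives were other normalizations, array weights, filters, probe set choices and left-out samples.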

Additional observations from a re-analysis of the deposited data

How the results depend on the processing

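No paired analysis was possible because the lines share no passage numbers. Of 278 values of the 20 IGF axis probe sets under the alternatives, 250 kept their direction and side of the threshold, 11 lost and 3 gained a call and 14 changed sign. IGF1R (203627_at and 203628_at) and IGFBP5 203424_s_at, 211958_at and 203425_s_at kept their calls in all alternatives run. With samples left out in turn, differences ran from 1.21 to 1.86 for IGFBP3 210095_s_at, from -2.16 to -1.59 for IGFBP5 211959_at and from -0.99 to -0.68 for IGFBP5 203426_s_at. The design text's selection left out 203426_s_at, at -0.87, by its fold. IGFBP3 212143_s_at passed with array weights (0.67), and so did IGFBP4 (-0.45).

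None of the 14 sign changes was of a probe set that passed. With samples left out, differences ran from -0.011 to 0.098 for IGF1R 208441_at (below 0 without SUM44 passage 75), from -0.055 to 0.062 for INSR 207851_s_at (-0.035 without LCCTam passage 10 and -0.055 without SUM44 passage 76), from -0.012 to 0.38 for IGF2R 201393_s_at (below 0 without LCCTam passage 9), from -0.40 to 0.13 for IGF2R 201392_s_at (above 0 without LCCTam passage 10), from -0.18 to 0.32 for IRS1 (-0.18 without LCCTam passage 9 and -0.17 without SUM44 passage 76), from -0.23 to 0.083 for IRS2 209185_s_at (above 0 without SUM44 passage 74), from -0.013 to 0.28 for IGFBP2 (below 0 without SUM44 passage 76) and from -0.016 to 0.22 for IGFBP6 (below 0 without LCCTam passage 10). With array weights the differences were -0.059 for INSR 207851_s_at, 0.15 for IGF2R 201392_s_at and 0.031 for IRS2 209185_s_at, and with quantile normalization that of INSR 207851_s_at was -0.0061.

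The 1494 passing probe sets (347 higher, 1147 lower) became 6828 with array weights (3310 higher, 3518 lower), where LCCTam passage 8 had a weight of 5.70, 705 without _x_at and _s_at probe sets, 454 by the design text and 948 with 1 probe set a gene, and 357 to 2398 with samples left out (471 without LCCTam passage 8, 673 without passage 9, 2398 without passage 10, 357 without SUM44 passage 75 and 949 without passage 76). Quantile normalization between arrays gave 1694 passing probe sets, 727 higher and 967 lower. The 8 passing IGF axis probe sets became 4 without _x_at and _s_at probe sets and 3 with 1 probe set a gene, since fewer were tested, and 5 to 8 with samples left out (5, all lower, without SUM44 passage 75). The 14 pathway genes became 37 with array weights, 5 by the design text and 5 to 16 with samples left out. Other causes were not tested.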

Other observations

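FOXO factors, which insulin and IGF signalling hold out of the nucleus, and genes known to respond to them were measured for 15 of 17 listed. Of these 0 rose and 2 fell in LCCTam, or 13.3%, against 7.92% of all genes, with a list median of -0.11. CDKN1B, the cell cycle inhibitor p27, read 8.09, 8.48 and 8.19 in LCCTam, against 9.01, 9.07 and 9.05 in SUM44, a difference of -0.79 (SE 0.12, adjusted p = 0.0103). TRIB1, a pseudokinase, read 7.03, 7.04 and 6.75 in LCCTam, against 8.02, 7.71 and 7.63 in SUM44, a difference of -0.85 (adjusted p = 0.0144). The lines did not overlap for either gene. Without SUM44 passage 75 neither passed, with adjusted p = 0.0636 for CDKN1B and 0.0651 for TRIB1, and TRIB1 also did not pass without LCCTam passage 8 (adjusted p = 0.054). FOXO1, FOXO3 and FOXO4, named after their values were seen, differed by -0.32, -0.43 and -0.11 and did not pass. The IGF2 mRNA binding protein genes IGF2BP2 and IGF2BP3 were dim and differed by 0.15 and 0.07, and neither passed.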
